A study of Mus musculus with 12 samples.

Results

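RNA of mouse leukemic bone marrow cells was compared between cells whose Hoxa cluster had been the target of Cre recombinase (Hoxa-del) and wild type leukemic cells that had received the same Cre virus (WT-Cre). The comparison used 6 of the 12 libraries of the series, 3 a group, and the 13425 of 25263 gene symbols whose mean over these 6 libraries was at least 1 FPKM, a read density that corrects for transcript length and library size. All cells came from adult mice and carried MLL-AF9, a fusion protein of acute leukemias in which part of AF9 is joined to the histone methyltransferase MLL. They were kept overnight with SCF, GM-CSF, IL-3 and IL-6, infected with a retrovirus and sorted for high GFP. WT-Cre cells were of strain C57BL/6 with an unaltered cluster, and Hoxa-del cells were of strain C57BL/6J with a floxed cluster exposed to Cre. The same genotypes with the control virus, WT-GFP and Hoxa-flox (3 libraries each), served as the second comparison. Genotype, strain and leukemia differed together between the groups and cannot be told apart. No label ties the replicates to separate cultures or mice, so a p-value here speaks of the spread between these libraries, which may be technical.

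The Hoxa cluster encodes homeodomain transcription factors that keep myeloid progenitors immature, and MLL fusions hold its posterior genes active. Hoxa proteins bind DNA together with TALE cofactors of the Meis and Pbx families. Myeloid progenitors that mature shut down these genes and switch on those of granules, lysosomes, complement and phagocyte surface receptors.

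Estimated depth of the 6 libraries lay between 4.04 M fragments (WT-Cre 2) and 15.7 M (Hoxa-del 3). The WT-Cre libraries resembled each other (Pearson r of log2 values 0.952 to 0.979), while Hoxa-del 2 stood apart from Hoxa-del 1 and 3 (r = 0.917 with each). Hoxa-del 2 was closer to Hoxa-flox 1 and 2 (0.976 and 0.977), and Hoxa-del 1 and 3 were close to Hoxa-flox 3 (0.951 to 0.977). The median SD per gene was accordingly larger in Hoxa-del (0.359 on the log2 scale) than in WT-Cre (0.125). Counts that lead a paragraph are therefore also given without Hoxa-del 2. Of the fits that left out 1 of the 6 libraries, that one called the most genes. For several lists the members called in each of these 6 fits are given too. Myeloid progenitor markers summed to 2549 to 2773 FPKM in WT-Cre and to 1493 to 2604 in Hoxa-del. A list of 12 T and NK cell genes summed to 44.4 to 56.5 FPKM in WT-Cre and 42.0 to 83.8 in Hoxa-del. A list of 13 stromal and endothelial genes summed to 13.8 to 14.2 and 20.65 to 48.4. Shorter marker panels of erythroid, B, T or NK, mast and stromal cells (5 to 7 genes each) reached at most 7.05 FPKM in any of the 6 libraries. Those of other myeloid cells differed between the groups: late neutrophil markers summed to 5778 to 6106 FPKM in WT-Cre and 204 to 1666 in Hoxa-del, monocyte or macrophage markers to 301 to 320 and 62.6 to 248, and megakaryocyte markers to 95.7 to 110 and 5.28 to 10.7. Their part in the gene lists below was not tested. In such bulk RNA, fewer cells of a type and less RNA per cell cannot be told apart. Genes that every cell uses, such as *Rock1* and *Usp3*, were listed at 0 in some libraries, so a value of 0 may also be a failed estimate.

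A gene was called where its difference in log2(FPKM + 1) passed an adjusted p of 0.05 (limma, all 4 groups in the fit, Benjamini-Hochberg over the 13425 genes). Means are given ± SD over the 3 libraries of a group, and in pairs joined by "against" the Hoxa-del value comes first. Of the genes tested, 3592 (26.8%) were called, 1705 higher (12.7%) and 1887 lower (14.1%) in Hoxa-del than in WT-Cre. Of these, 1762 differed by more than 1 on the log2 scale, 812 upwards and 950 downwards. An unadjusted p under 0.05 was reached by 38.2% of the genes tested. Of the 3592 called genes, 2234 (991 higher and 1243 lower) were called as well in each of the 6 fits that left out 1 of the 6 libraries. Without Hoxa-del 2 the number of calls was 4025, with 1756 higher and 2269 lower. That was the most of the 6 fits, and the fewest were 2572 without WT-Cre 3.

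The targeted genes were lower in Hoxa-del than in WT-Cre at the anterior and middle of the cluster, but still expressed, and those at its 5′ end were not lower. *Hoxa9* (chr6:52223100-52231089, minus strand, GRCm38), the cluster's main factor in MLL-rearranged leukemia, measured 161, 172 and 152 FPKM in WT-Cre and 83.5, 114 and 119 in Hoxa-del. Its level was 0.654 times that of WT-Cre (log2 difference -0.62, SE 0.16, adjusted p = 0.0133). All 3 Hoxa-del libraries lay below all 3 WT-Cre libraries. *Hoxa7* measured 13.2, 26.9 and 26.2 against 38.4, 41.7 and 39.4 (-0.89, SE 0.23, adjusted p = 0.0164). The anterior gene *Hoxa2* measured 32.5, 40 and 28.5 against 55.2, 64.1 and 59.1 (-0.81, SE 0.21, adjusted p = 0.0135). *Hoxa4*, a low gene, measured 3.07, 1.96 and 2.87 against 6.19, 5.42 and 5.72 (-0.91, SE 0.21, adjusted p = 0.0091). For these genes too the groups did not overlap, as for 40.9% of all genes tested. The call of *Hoxa2* was lost without Hoxa-del 3 or without WT-Cre 2 (adjusted p = 0.0517 and 0.0518), and that of *Hoxa7* without WT-Cre 2 (0.0566). When only the 2 groups were fitted, *Hoxa9* and *Hoxa7* were not called (0.0693 and 0.0673).

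The 5′ genes of the cluster were not lower. *Hoxa11*, a posterior gene used in limb and uterus, was nearly absent from WT-Cre (0.679, 0.438 and 0.705 FPKM) and measured 8.34, 23.5 and 16.9 in Hoxa-del (log2 difference 3.32, SE 0.28, adjusted p = 8.34e-06). *Hoxa10* overlapped between the groups, at 36.2, 32.9 and 36.0 in WT-Cre and 28.3, 81.5 and 44.7 in Hoxa-del, and was not called (adjusted p = 0.313). It was called higher without Hoxa-del 1, the lowest of the 3 (0.77, adjusted p = 0.0244). *Hoxa13* stayed at or below 0.205 FPKM in the 6 libraries, under the filter. *Hoxa3*, *Hoxa5* and *Hoxa6* were not analysed here. *Hoxb4*, the measured gene of another Hox cluster that passed the filter, was lower (0.4999 ± 0.171 against 2.15 ± 0.821 FPKM, adjusted p = 0.00494).

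With the control virus the same genes stood differently. *Hoxa9* was higher in Hoxa-flox (236, 217 and 257 FPKM) than in WT-GFP (183, 159 and 159), with a log2 difference of 0.50 (adjusted p = 0.0384). *Hoxa10* differed there by 1.68 and *Hoxa11* by 4.58, both called. *Hoxa2*, *Hoxa4* and *Hoxa7* differed by 0.32, -0.15 and 0.12, none called. For all 6 tested Hoxa genes the difference was thus shifted downwards with Cre, by between -0.76 (*Hoxa4*) and -1.27 (*Hoxa10*), with unadjusted p from 0.000381 (*Hoxa9*, limma) to 0.0289. None of these shifts passed over all genes (adjusted p = 0.816 for *Hoxa9*). *Hoxa9* was 1 of 2 genes called in both comparisons with opposite sign. The other was *Gm23077*, which differed by 3.08 with Cre and by -2.13 with the control virus. The plot of Hoxa genes by library shows each value.

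**Figure D1:**
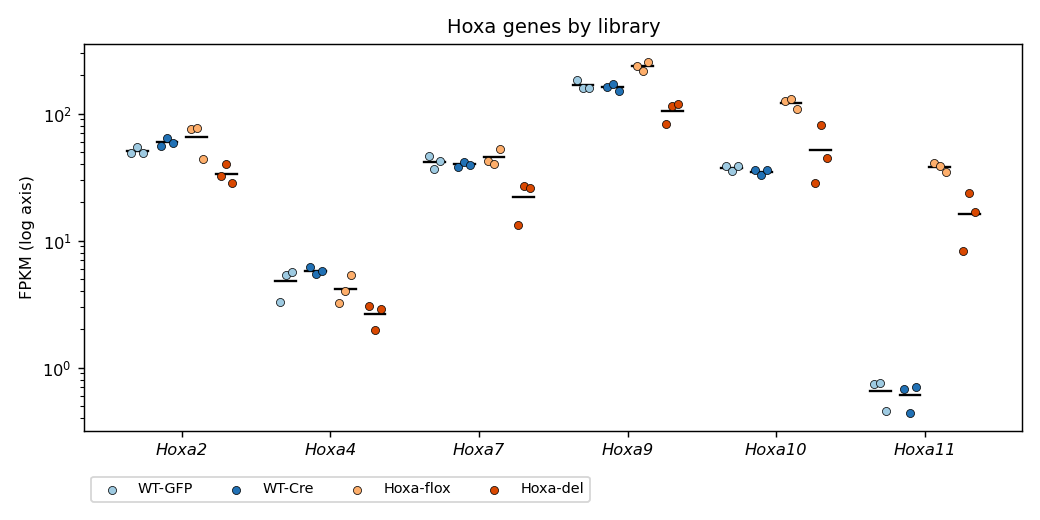
Expression of 6 Hoxa genes (FPKM, log scale) by group; points are single libraries and bars the mean of 3. Hoxa-del lies below WT-Cre for *Hoxa2*, *Hoxa4*, *Hoxa7* and *Hoxa9*, overlaps it for *Hoxa10* and lies above it for *Hoxa11* (8.34 to 23.5 against at most 0.705 FPKM).

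Most of the largest positive differences were in genes nearly silent in WT-Cre. *Dlk1* (chr12:109452823-109463336, plus strand), an imprinted membrane protein of the Notch ligand family, measured 331, 595 and 490 FPKM in Hoxa-del and at most 0.191 in WT-Cre (log2 difference 8.71, SE 0.18, adjusted p = 5.2e-10). Its imprinted neighbour *Meg3*, a long noncoding RNA, was listed at 0 in the 3 WT-Cre libraries and measured 3.25, 1.95 and 4.43 in Hoxa-del. *Tcf24*, a basic helix-loop-helix factor, measured 148, 106 and 134 against at most 0.336 (6.73, SE 0.17). *Pcdh7*, a protocadherin, measured 125, 91.7 and 136 against at most 0.461 (6.46, SE 0.16). *Epha7*, an ephrin receptor, averaged 69.1 ± 24.1 against 0.471 ± 0.0749, *Fgfbp3*, an FGF-binding protein, 53.2 ± 11.2 against 0.281 ± 0.409, and *Serpina3g*, a serine protease inhibitor, 66.8 ± 33.6 against 0.465 ± 0.199. *Ssbp2*, a DNA-binding cofactor of LIM-domain complexes, averaged 55.3 ± 7.45 against 0.641 ± 0.307. *Hnf4a*, a nuclear receptor best known from liver, measured 24.2, 48.8 and 23.7 in Hoxa-del against at most 0.0358. All these genes except *Meg3* were picked for large called differences without overlap between the groups, so their separation was fixed by the choice. Of all genes tested, 20.1% were higher without overlap. *Dlk1*, *Meg3* and the others kept their call in each of the 6 fits with a library left out.

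*Thy1*, a surface glycoprotein of T cells and some stem cells, was also among the largest positive differences but varied within the group. It measured 17.8, 163 and 28.7 FPKM in Hoxa-del, against at most 0.455 in WT-Cre (log2 difference 5.27, SE 0.77, adjusted p = 0.000473). The high value was that of Hoxa-del 2. The T or NK cell markers (5 of 7 with values) summed to 0.359 to 0.655 FPKM in WT-Cre and 3.34 to 7.05 in Hoxa-del, with *Cd3e* listed at 0 in all 6 libraries, and *Lck* supplied most of that sum (3.34, 4.63 and 6.85, against at most 0.495 in WT-Cre). The longer list of 12 T and NK cell genes did not follow as a whole. Of its 4 tested genes *Lck* was higher and 2, *Bcl11b* and *Il7r*, were lower (median -0.64).

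Several partners and targets of the MLL-Hoxa program were higher in Hoxa-del. *Pbx3*, the Pbx partner of Hoxa9 and Meis1, measured 160, 146 and 157 FPKM against 4.74, 4.20 and 5.95 (log2 difference 4.71, SE 0.18, adjusted p = 1.24e-08). *Meis1* measured 83.1, 60.0 and 96.2 against 27.4, 23.8 and 25.3 (1.58, SE 0.19, adjusted p = 0.000105). Of 6 tested TALE cofactors 3 were higher, with *Pbx4*, and 0 lower, and 3 and 1 without Hoxa-del 2. Of 21 tested MLL fusion targets outside the cluster, 11 were higher and 3 lower (median 0.74, against -0.004 over all genes), and 11 and 2 without Hoxa-del 2. The higher ones included *Hmga2*, a chromatin protein of fetal stem cells, listed at 0 in WT-Cre and at 34.5, 6.53 and 8.87 in Hoxa-del. *Zfp521*, a zinc finger cofactor of immature cells, averaged 3.38 ± 0.387 against 0.0202 ± 0.0349 FPKM. *Runx2* (62.1 ± 16 against 22.7 ± 2.76), *Jmjd1c* (134 ± 54.4 against 45.2 ± 1.93), *Cdk6* (379 ± 139 against 178 ± 15.9) and *Myc* (111 ± 22.7 against 65.7 ± 4.92) were higher as well. The lower genes included *Myb*, a factor that maintains immature myeloid cells, at 206 ± 38.98 against 469 ± 6.08 FPKM (-1.20, SE 0.16), and *Cpeb2* (-0.64). *Cpeb2* lost the call in 4 of the 6 fits with a library left out (adjusted p up to 0.125), and *Pbx4* without WT-Cre 3 (0.0573). Several members of these lists had been chosen with earlier results of these libraries known, so their counts are descriptions.

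Among 12 tested stem and progenitor surface markers, 4 were higher and 4 lower, also without Hoxa-del 2. *Cd34* measured 65.2, 55.3 and 63.0 FPKM in Hoxa-del and 1.74, 1.69 and 2.91 in WT-Cre (log2 difference 4.34, SE 0.16, adjusted p = 9.61e-09). *Kit*, the receptor for SCF, measured 36.3, 32.3 and 24.5 against 4.16, 3.81 and 4.18 (2.65, SE 0.15). *Prom1* (10.98 ± 4.94 against 34.05 ± 2.48), *Cd48*, *Cd44* and *Itga4* were lower. Of 21 myeloid transcription factors 3 were higher and 6 lower. *Gata2*, a factor of stem and mast cells, measured 9.35, 8.96 and 13.2 against at most 0.0888 FPKM, and the ETS factor *Erg* 37.7, 31.7 and 26.6 against 11.9, 12.6 and 12.3. *Id2*, an inhibitor of basic helix-loop-helix factors, measured 1.80, 1.53 and 1.51 against 31.6, 31.5 and 30.5. The macrophage factor *Maf* (-2.13) was lower, as were *Klf4*, *Fli1* and *Runx1*, the last of which lost the call in 3 of the 6 fits with a library left out (adjusted p up to 0.0601). *Spi1*, which encodes PU.1, averaged 188 ± 35.8 against 236 ± 10.9 FPKM and was not called (adjusted p = 0.238). *Cebpa* averaged 133 ± 68.2 against 76.4 ± 2.85 and was not called either (adjusted p = 0.200).

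Macrophage genes were mostly lower. Of 24 tested complement and scavenger genes 17 were lower and 1 higher (median -2.70), and 18 and 1 without Hoxa-del 2. Each of the 6 fits with a library left out called 16 lower and 1 higher. The complement starter proteins were nearly absent from Hoxa-del: *C1qb* measured 56.2, 46.5 and 49.96 FPKM in WT-Cre and was listed at 0, 0.461 and 0 in Hoxa-del (log2 difference -5.51, SE 0.17, adjusted p = 2.86e-09). *C1qc* measured 41.1, 44.5 and 41.2 in WT-Cre and was listed at 0 in all 3 Hoxa-del libraries. *Spp1*, the secreted protein osteopontin, measured 2.00, 1.95 and 4.25 against 460, 459 and 498 (-7.04, SE 0.21). *Gpnmb*, a glycoprotein of lysosome-rich macrophages, averaged 2.08 ± 1.601 against 270 ± 2.23, *Apoe*, a lipid carrier, 6.58 ± 2.88 against 270 ± 4.51, and the scavenger receptor *Msr1* 0.1199 ± 0.0567 against 30.3 ± 1.63. *Arg1*, the arginase of alternatively activated macrophages, measured 0.451, 0.734 and 0.425 against 225, 210 and 221 (-7.16, SE 0.23). The HDL receptor *Scarb1* was the member that was higher (59.9 ± 0.771 against 32.5 ± 1.69). The macrophage surface protein *Adgre1* (F4/80) did not follow: it measured 29.2, 95.3 and 34.3 in Hoxa-del and 46.9, 48.2 and 45.9 in WT-Cre (adjusted p = 0.959). *Cd68* measured 24.4, 121 and 22.7 against 110, 103 and 105 (adjusted p = 0.171). In both of these Hoxa-del 2 was the high library. The largest negative difference outside the list was that of *Cchcr1*, a coiled-coil protein, at 2.03, 1.23 and 0.311 against 471, 433 and 476 (-7.80, SE 0.35, adjusted p = 4.68e-08).

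PU.1, a master factor of phagocyte genes, binds ETS sites close to gene starts. The promoters of 4 strongly lower genes are shown because each holds the PU.1 type site GAGGAAGT: *C1qc*, *Spp1*, the neutrophil collagenase *Mmp8* and the cathepsin *Ctss*. They run from 250 bases before to 50 after the start, 5′ to 3′ on the gene's strand (RefSeq, GRCm38.p6), with the site or its reverse complement in capitals.
C1qc, chr4:136892865-136893164, minus strand: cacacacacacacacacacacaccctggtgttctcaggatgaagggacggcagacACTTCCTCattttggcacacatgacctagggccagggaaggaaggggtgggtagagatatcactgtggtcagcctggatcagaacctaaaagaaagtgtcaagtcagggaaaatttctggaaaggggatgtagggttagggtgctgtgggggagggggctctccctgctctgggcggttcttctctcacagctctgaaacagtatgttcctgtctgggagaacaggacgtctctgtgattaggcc
Spp1, chr5:104434861-104435160, plus strand: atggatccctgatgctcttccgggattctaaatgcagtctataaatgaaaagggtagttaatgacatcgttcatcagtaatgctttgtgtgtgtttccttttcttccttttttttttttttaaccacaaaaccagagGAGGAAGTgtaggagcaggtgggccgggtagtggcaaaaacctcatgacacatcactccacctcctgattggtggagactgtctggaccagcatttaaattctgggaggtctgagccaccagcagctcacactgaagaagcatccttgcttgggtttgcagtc
Mmp8, chr9:7558179-7558478, plus strand: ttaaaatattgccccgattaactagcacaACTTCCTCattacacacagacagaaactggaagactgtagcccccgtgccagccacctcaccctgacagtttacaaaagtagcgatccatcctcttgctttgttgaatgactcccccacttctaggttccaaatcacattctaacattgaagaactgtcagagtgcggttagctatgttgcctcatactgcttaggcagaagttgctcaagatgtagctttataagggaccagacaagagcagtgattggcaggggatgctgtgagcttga
Ctss, chr3:95526536-95526835, plus strand: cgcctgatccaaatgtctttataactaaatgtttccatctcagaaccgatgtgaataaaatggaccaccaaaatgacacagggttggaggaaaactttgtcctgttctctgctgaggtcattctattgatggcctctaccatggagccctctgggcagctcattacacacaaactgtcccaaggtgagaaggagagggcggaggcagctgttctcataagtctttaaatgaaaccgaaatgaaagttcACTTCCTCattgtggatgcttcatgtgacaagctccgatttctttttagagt
The site was searched on both strands of all windows. It lay in 2 of the 14 macrophage list genes that were lower and had a promoter in the RefSeq table (of 17 lower), and in 3 of the 14 lower late neutrophil genes. Of the 8499 tested genes with a promoter there, 3.99% held it, as did 3.2% of all 32851 windows of the table. It lay in 84 of the 1285 genes called lower that had a promoter there (6.54%), and in 34 of 1101 called higher (3.09%). This difference was not tested, and the windows of the lower genes *C1qb*, *Fcnb*, *Chil3*, *Lyz2*, *Gpnmb*, *Cybb* and *Ltf* did not hold the site. A second window of *Spp1* did not hold it either. A PBX with HOX site, TGATTTAT, was searched in the same way. It lay in 4 of the 1285 lower genes (0.311%), 4 of the 1101 higher genes (0.363%) and 0.506% of the 8499 tested genes. A match shows that these letters are in the window, and binding was not measured.

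Among neutrophil maturation genes every call was lower. Of 23 tested late neutrophil genes 14 were lower and 0 higher (median -2.27), and 15 and 0 without Hoxa-del 2. Of the 14 lower genes 10 kept the call in each of the 6 fits with a library left out. *Chil3*, a secreted chitinase-like protein, measured 930, 892 and 1016 FPKM in WT-Cre and 41.5, 33.5 and 6.45 in Hoxa-del (log2 difference -5.41, SE 0.68, adjusted p = 0.000165). The related *Chil1* averaged 1.21 ± 0.978 against 303 ± 6.72. *Fcnb*, a ficolin, measured 0.117, 0 and 0.0830 against 24.1, 23.5 and 21.8, and *Mmp8* 1.72, 2.40 and 1.41 against 33.6, 31.1 and 36.5. The calprotectin genes differed by -2.64 (*S100a8*) and -3.11 (*S100a9*), with wide spread: *S100a9* measured 543, 411 and 62.9 in Hoxa-del, lowest in Hoxa-del 3. Both lost the call without Hoxa-del 3 or any single WT-Cre library (adjusted p up to 0.149 and 0.119). *Ngp*, a secondary granule protein, showed the same spread (201, 293 and 14.8 against 976 to 1068) and was not called (adjusted p = 0.0671).

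Primary granule proteins, made earlier in maturation, were mostly not called. Of 12 tested, 3 were lower and 0 higher (25% called, against 26.8% of all genes), with and without Hoxa-del 2. *Lyz2*, lysozyme, was the large difference, at 2173, 2097 and 2102 FPKM in WT-Cre and 136, 202 and 54.7 in Hoxa-del (log2 difference -4.20, SE 0.51, adjusted p = 0.000126). *Ctsc*, which activates granule proteases, averaged 18.2 ± 2.02 against 71.3 ± 0.5301, and *Prss57* 4.46 ± 1.002 against 15.4 ± 4.603. The granule proteases were not called: *Elane* averaged 1372 ± 462 against 1718 ± 114 (adjusted p = 0.345), *Prtn3* 1334 ± 428 against 1138 ± 48.3 (0.664) and *Ctsg* 704 ± 88.8 against 644 ± 17.01 (0.745).

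Lysosomal and phagocyte genes were called lower and none higher. Of 25 cathepsins and lysosome proteins 14 were lower and 0 higher (median -0.93), and 18 and 0 without Hoxa-del 2. Of the 14 lower genes 11 kept the call in each of the 6 fits with a library left out. *Ctss*, the cathepsin of antigen-presenting cells, measured 146, 143 and 145 FPKM in WT-Cre and 4.06, 7.44 and 4.24 in Hoxa-del. *Lgmn*, an asparaginyl endopeptidase, averaged 0.402 ± 0.389 against 38.3 ± 2.83. *Psap*, the precursor of the saposins, was lower in all 3 libraries but unevenly (66.2, 239 and 58.6 against 517 to 534). Of 11 Fc receptor and oxidase genes 5 were lower and 0 higher, and 8 and 0 without Hoxa-del 2. Only 2 kept the call in each of the 6 fits with a library left out. The 5 lower genes were the oxidase subunits *Cybb* (6.58 ± 4.75 against 67.7 ± 2.71), *Ncf1* (121 ± 41.5 against 254 ± 6.08) and *Rac2*, the high-affinity receptor *Fcgr1* and the adaptor *Tyrobp*. *Rac2* and *Tyrobp* kept the call in 1 of the 6 fits with a library left out, that without Hoxa-del 2 (adjusted p in the others up to 0.0728 and 0.0895), and *Ncf1* lost it without Hoxa-del 3 (0.055).

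Of 17 tested chemokines and their receptors 9 were lower and 0 higher, and 11 and 0 without Hoxa-del 2. *Ccl2*, which attracts monocytes, measured 49.1, 45.5 and 46.2 FPKM in WT-Cre and 0, 0.225 and 0.0943 in Hoxa-del, and *Ccl7* was listed at 0 there (mean 24.0 in WT-Cre). Among 16 cytokine receptors 1 was higher (*Kit*) and 4 lower (31.2% called, against 26.8% of all genes), and 2 and 7 without Hoxa-del 2. The lower ones were the receptors for G-CSF (*Csf3r*, 22.5 ± 6.796 against 100 ± 3.09), GM-CSF (*Csf2ra*, 90.9 ± 21.1 against 212 ± 9.54), IL-6 (*Il6ra*, 4.79 ± 0.572 against 17.9 ± 0.995) and TNF (*Tnfrsf1b*). *Csf1r*, the M-CSF receptor, measured 8.68, 30.5 and 7.89 against 39.3, 41.7 and 38.5 and was not called (adjusted p = 0.0843). Of 17 pattern recognition receptors 6 were lower, among them the endosomal *Tlr7* (0.6002 ± 0.121 against 9.496 ± 1.67) and *Tlr8*, and 2 higher, with the LPS receptor *Tlr4* at 44.6 ± 2.43 against 21.7 ± 2.76. Of 9 MHC class II genes 3 were lower and 1 higher: the invariant chain *Cd74* averaged 0.883 ± 0.526 against 22 ± 1.23, *H2-Aa* and *H2-Eb1* were also lower, and *H2-Oa* was higher. Of 11 megakaryocyte and platelet genes 6 were lower and 0 higher, led by the platelet chemokine *Pf4* (1.61 ± 0.5995 against 96.1 ± 7.14 FPKM). Of 15 iron and heme genes 3 were lower: the ferritin *Fth1* (552 ± 262 against 1921 ± 97.2), the heme oxygenase *Hmox1* (23.3 ± 11.8 against 142 ± 2.27) and *Hfe*. They were 20% of these genes, against 14.1% of all genes called lower, and without Hoxa-del 2 the count was 7. Of 6 mast cell and basophil genes 4 were higher and 1 lower, the higher ones being *Gata2*, *Kit*, *Hdc* and *Ifitm1*. *Gata2* and *Kit* are also counted in lists above. The mast or basophil markers did not all follow: *Mcpt8* was not called, and *Fcer1a* and *Prss34* were listed at 0 in every Hoxa-del library. Under the filter, *Ms4a2* averaged 0.643 against 1.19 FPKM and *Cpa3* 0.569 against 0.

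Among genes of growth and biosynthesis most calls were higher. Of 40 tested cytosolic ribosomal proteins 34 were higher and 0 lower (median 1.11), and 33 and 0 without Hoxa-del 2. Of the 34 higher genes 25 kept the call in each of the 6 fits with a library left out. *Rplp1*, a stalk protein, measured 3135, 6120 and 2616 against 1730, 1811 and 1681. It was highest in Hoxa-del 2, and the groups did not overlap. Ribosomal protein genes have many near-identical copies, so their levels are uncertain. Of 29 ribosome biogenesis genes 16 were higher and 0 lower, and 17 and 0 without Hoxa-del 2. Of the 16 higher genes 8 kept the call in each of the 6 fits. The nucleolar protein *Npm1* averaged 176 ± 70.6 against 57.1 ± 3.31 and the RNA polymerase I subunit *Polr1c* 31.1 ± 10.4 against 12.1 ± 0.6196. *Rplp1* lost the call without any single WT-Cre library (adjusted p up to 0.0964), and *Npm1* kept it only without Hoxa-del 2 among the 6 fits with a library left out (up to 0.0895 in the others).

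Of 21 glycolysis genes 11 were higher and 1 lower (median 1.14), and 11 and 2 without Hoxa-del 2. *Aldoc*, an aldolase usually found in brain, measured 39.0, 88.0 and 24.0 FPKM against 2.89, 2.91 and 2.67, and lactate dehydrogenase *Ldha* 416, 617 and 374 against 205, 200 and 204. The lower one was *Pfkfb3*, which makes an activator of phosphofructokinase (24.1 ± 3.31 against 40.8 ± 0.952). Of 23 sterol and fatty acid synthesis genes 14 were higher and 0 lower (median 0.88), and 16 and 0 without Hoxa-del 2. They included *Lss* (22.3 ± 8.92 against 6.88 ± 1.35), the master regulators *Srebf1* and *Srebf2* and the desaturase *Scd2* (87.7, 50.4 and 153 against 13.2, 13.5 and 14.9). *Srebf2* lost the call without Hoxa-del 3 or any single WT-Cre library (adjusted p up to 0.106). In each of the 6 fits with a library left out 10 of the 14 higher sterol and fatty acid genes kept it. Of 25 respiratory chain genes 2 were higher and 1 lower (12% called, against 26.8% of all genes), and 1 and 1 without Hoxa-del 2.

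Of 27 interferon response genes 9 were higher and 0 lower, and 6 and 0 without Hoxa-del 2. Of the 9 higher genes 4 kept the call in each of the 6 fits with a library left out. *Oasl2*, an oligoadenylate synthetase-like protein, measured 12.6, 34.8 and 8.56 FPKM against at most 0.708, and *Oas3* 10.2, 62.5 and 8.39 against at most 2.197. Hoxa-del 2 was the highest library in both. *Irf7*, the regulator of the response, measured 18.9, 66.7 and 15.9 against 7.03, 8.42 and 8.82 and was not called (adjusted p = 0.0568). Of 33 DNA replication genes 4 were higher and 0 lower (12.1% called, against 26.8% of all genes), and 10 and 0 without Hoxa-del 2. Among them were the polymerase subunit *Pole* (20.1, 15.5 and 21.2 against 7.38, 9.53 and 7.23) and the helicase subunit *Mcm2* (44.8, 31.2 and 56.2 against 21.3, 22.3 and 22.6). *Oas3* lost the call without Hoxa-del 2 or any single WT-Cre library (adjusted p up to 0.0822), and *Mcm2* kept it only without Hoxa-del 2 among the 6 fits with a library left out (up to 0.148 in the others). Of the DNA replication genes 2 were called higher in each of these fits. Of 33 mitosis genes 0 were called in either direction by limma, and 1 was higher without Hoxa-del 2. *Mki67*, a marker of cycling cells, separated the libraries of the group: it measured 84.6, 17.8 and 93.2 in Hoxa-del and 67.4, 65.1 and 68.4 in WT-Cre. Hoxa-del 2 was below and the other Hoxa-del libraries above every WT-Cre library.

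Of 24 p53 targets 3 were higher and 4 lower (29.2% called, against 26.8% of all genes), and 3 and 5 without Hoxa-del 2. The lower ones were led by *Gdf15* (0.293 ± 0.204 against 5.83 ± 0.422 FPKM). Of 16 BCL2 family genes 1 was higher (*Bnip3*, a hypoxia-induced mitophagy receptor, 38.5 ± 18.8 against 7.67 ± 0.782) and 2 lower, the survival genes *Bcl2a1a* (0.429 ± 0.405 against 23.6 ± 4.64) and *Bcl2a1d*, which are near-identical copies and uncertain apart. Of the BCL2 family 18.8% was called, and without Hoxa-del 2 its counts were 2 and 3. Of 24 polycomb subunits 20.8% were called, 3 higher (*Pcgf5*, *Pcgf6* and *Kdm2b*) and 2 lower (*Rybp* and *Rnf2*). Without Hoxa-del 2 the polycomb counts were 3 and 1. Of 18 immediate early genes 2 were higher, including *Fosl1* (5.05 ± 0.421 against 0.461 ± 0.189), and 5 lower, including *Fos* (6.17 ± 2.697 against 19.3 ± 1.72) and *Atf3* (2.2 ± 1.51 against 13.2 ± 0.708). Of 22 NF-kB and inflammasome genes 5 were higher, with the inflammasome sensor *Nlrp3* at 15.5 ± 2.64 against 4.82 ± 0.0816, and 5 lower, with the receptor antagonist *Il1rn* at 24.2 ± 15.9 against 82.5 ± 5.39. Of 21 integrin and adhesion genes 3 were higher, including *Pecam1*, and 7 lower, including the Mac-1 subunits *Itgam* (125 ± 55.6 against 277 ± 11.1) and *Itgb2* (184 ± 50.2 against 319 ± 6.78). Of 18 S100, galectin and annexin genes 6 were lower and 0 higher, and 12 and 0 without Hoxa-del 2. Only 2 of the 6 lower genes kept the call in each of the 6 fits with a library left out. *Itgam* and *Rnf2* lost the call in 5 and *Itgb2* and *Il1rn* in 4 of the 6 fits with a library left out, and *Pecam1* without WT-Cre 2 (adjusted p from 0.0502 to 0.132). The plot of gene lists sets all lists of at least 9 tested genes side by side.

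**Figure D2:**
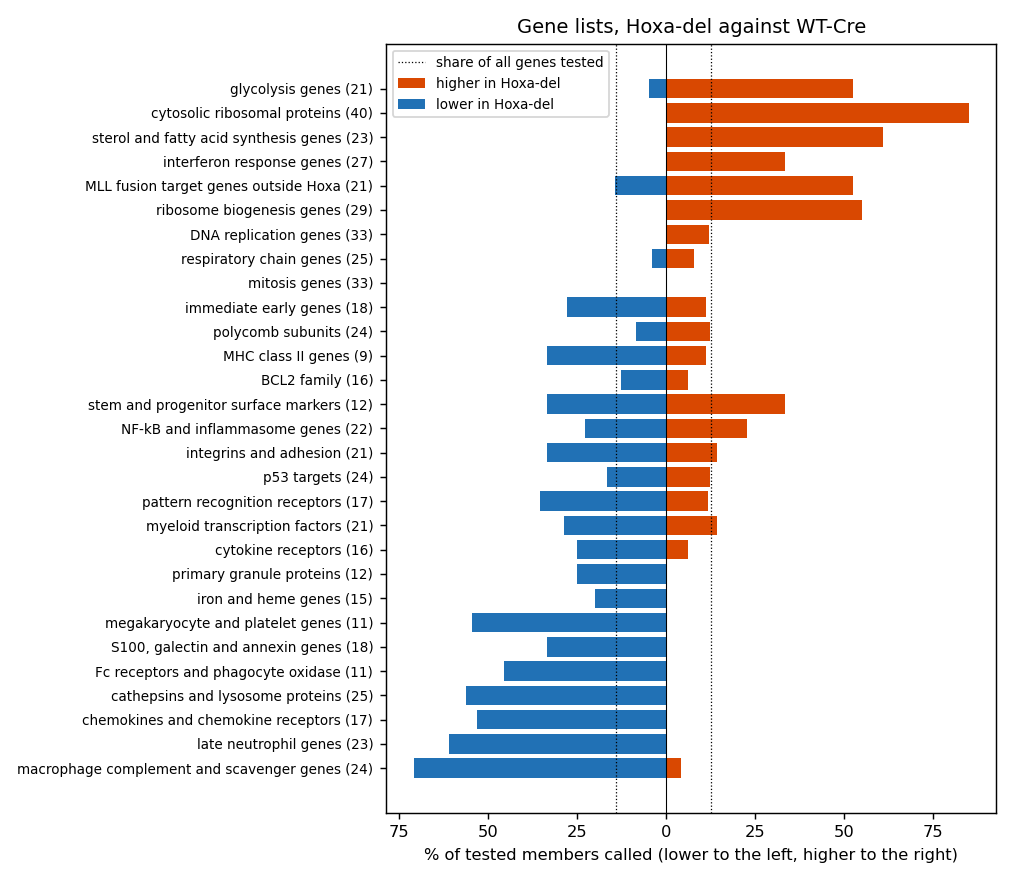
Share of the tested members of each gene list called lower (left) or higher (right) in Hoxa-del than in WT-Cre, in percent, with the number tested in parentheses; dotted lines mark the shares of all genes tested (14.1% lower and 12.7% higher). Macrophage and late neutrophil genes lie at the lower end of the order by median difference and glycolysis and ribosomal protein genes at the upper end.

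Most genes called between the genotypes with Cre were also called with the control virus. The 2 comparisons share no library, but 1 fit of all 4 groups estimated the spread for both, so their calls are not independent. When only Hoxa-del and WT-Cre were fitted, 2380 genes were called. Between Hoxa-flox and WT-GFP 3464 of the same genes (25.8%) were called, 1695 higher and 1769 lower, while 37.6% had an unadjusted p under 0.05 and 46.7% groups without overlap. Of the called genes, 2695 were called in the same direction in both comparisons, 1260 higher and 1435 lower. They made up 75% of the genes called with Cre and 77.8% of those called with the control virus. The median size of the difference over all genes was 0.386 with Cre and 0.377 with the control virus. Among the 2695 genes the estimate was larger with Cre for 1231 and smaller for 1464. *Dlk1* differed by 8.71 with Cre and 8.98 with the control virus, *Pbx3* by 4.71 and 4.75, *Cd34* by 4.34 and 4.52, *Spp1* by -7.04 and -6.84 and *C1qb* by -5.51 and -5.47.

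A further 895 genes were called with Cre and not with the control virus (444 higher and 451 lower), and 767 the other way round. A call in one comparison alone does not show that the differences differ. In the test of the change itself, 1 of 13425 genes passed (0.00745%), the small nuclear RNA *Rn7sk*, and 336 had an unadjusted p under 0.05 (2.5%, limma). With array weights, whose iteration did not converge, 3407 genes passed the test of the change. Of the 895 genes 120 were among the 336 with an unadjusted p under 0.05, and of the 767 genes 58. Genes called in 1 comparison alone tend to have unlike estimates by that choice, so this overlap is no separate evidence. On simulated data with 100 genes changed by 1 on the log2 scale the test of the change recovered 25%, and of 100 genes changed by 2 it recovered 73%. The test of Hoxa-del against WT-Cre recovered 58% and 90%. False calls numbered 7 for the change and 6 for Hoxa-del against WT-Cre. The simulation gave each gene the same spread in all groups and no sets of similar libraries. It changed few genes, none of them weakly expressed. In the data the median SD per gene was 0.125 in WT-Cre and 0.359 in Hoxa-del, so these shares may not hold there.

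The lists are given for both comparisons side by side, and no difference between the counts was tested. Of the macrophage genes 17 were lower in each, of the late neutrophil genes 14 with Cre and 16 with the control virus, and of the ribosomal proteins 34 were higher in each. Of the ribosome biogenesis genes 16 were higher with Cre and 7 with the control virus (medians 0.68 and 0.41). The numbers were 14 and 10 for higher sterol genes, 9 and 17 for higher interferon genes, 14 and 10 for lower lysosome genes and 3 and 6 for lower primary granule genes. In DNA replication genes the median was 0.47 with Cre and -0.04 with the control virus, and in mitosis genes 0.14 and -0.47. Without Hoxa-del 2, the medians with Cre were 0.82 and 0.58. That check kept Hoxa-flox 1 and 2, which resembled Hoxa-del 2. Libraries of this kind were most of Hoxa-flox and a minority of Hoxa-del. The part of this uneven split in these counts and medians was not tested.

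Apart from *Rn7sk*, no single gene passed the test of the change, and those below are given as values. *Mpo*, myeloperoxidase, measured 407, 12.5 and 98.2 FPKM in Hoxa-del and 186, 195 and 180 in WT-Cre, and 4.42, 3.80 and 31.1 in Hoxa-flox and 326, 269 and 282 in WT-GFP. Its difference was -1.20 with Cre (adjusted p = 0.424) and -4.96 with the control virus (adjusted p = 0.00417), a change of 3.75 with unadjusted p = 0.0243 and adjusted p = 0.9998 (limma). Hoxa-del 1 was above every WT-Cre library and Hoxa-del 2 and 3 were below. The neutrophil chemokine *Cxcl3* differed by -2.59 with Cre and by -3.98 with the control virus (change 1.39, unadjusted p = 0.000395, adjusted p = 0.816). In the related *Cxcl2* the differences were 0.09 and -1.86. The estimate for *Thy1* was 5.27 with Cre and 6.91 with the control virus (change -1.64, unadjusted p = 0.158). *Lgmn* differed by -4.85 with Cre and by -3.94 with the control virus (change -0.91, unadjusted p = 0.00894). *Itga6*, the laminin receptor subunit, was higher by 1.22 with Cre and by 2.00 with the control virus (change -0.78, unadjusted p = 0.01999), both called. The scatter of both differences shows where these genes lie.

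**Figure D3:**
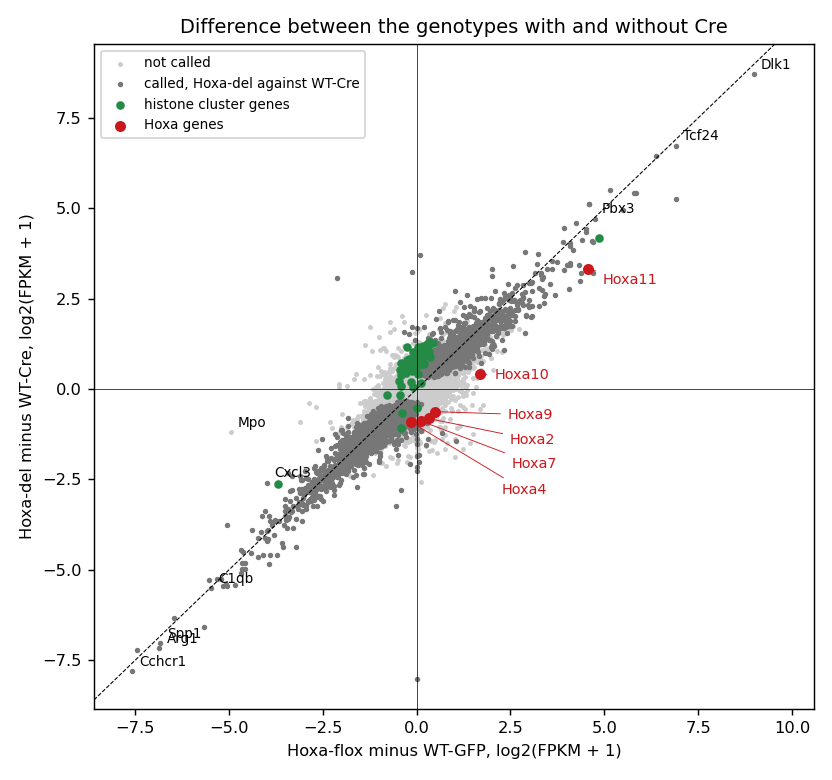
Difference between the genotypes in log2(FPKM + 1) for each tested gene except *Rn7sk*, with the control virus on the horizontal and with Cre on the vertical axis; dark points were called in Hoxa-del against WT-Cre, and the dashed line marks equal differences. Most called genes lie along the line, the Hoxa genes lie below it and most histone cluster genes above it.

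Of 53 tested histone cluster genes 30 were called higher with Cre. These genes encode replication-dependent histones, which are made in S phase, and were picked as a group after their values had been seen. In Hoxa-del against WT-Cre 30 were higher and 1 lower (median 0.72), 25 and 1 without Hoxa-del 2, and 16 and 1 without WT-Cre 3. With the control virus 1 was higher and 1 lower (median -0.09), and 7 and 21 with array weights. The median change was 0.80, against -0.018 over all genes. By limma 0 of the 53 passed the test of the change after adjustment, and 35 had an unadjusted p under 0.05, all upwards. With array weights, whose iteration did not converge, 34 passed. *Hist1h2ad* measured 29.6, 35.4 and 30.6 FPKM in Hoxa-del and 15.4, 13.7 and 15.1 in WT-Cre, against 19.4, 21.9 and 27.3 in Hoxa-flox and 22.7, 21.8 and 21.0 in WT-GFP (change 1.01, unadjusted p = 0.000315). *Hist1h1e*, a linker histone, measured 510, 912 and 550 in Hoxa-del and 355, 336 and 327 in WT-Cre. The summed FPKM of the 53 genes was 9957, 15294 and 8245 in Hoxa-del and 6319, 6740 and 5522 in WT-Cre. It was 7353, 7571 and 9188 in Hoxa-flox and 8761, 7457 and 7970 in WT-GFP. These sums were not rescaled. Total FPKM of all rows was 805751, 1211907 and 676514 in Hoxa-del and 758291, 673271 and 548383 in WT-Cre. Its part in the sums was not tested. Upper quartiles of the tested genes lay between 23.8 and 26.5 in these 6 libraries. With upper-quartile rescaling 32 histone genes were higher and 1 lower with Cre.

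The plot by library shows the summed FPKM of the histone genes beside *Mpo*, *Thy1* and *Mki67*. The groups with Cre did not overlap in that sum and those with the control virus did, and WT-Cre lay below WT-GFP. When Hoxa-del 2 was set against Hoxa-flox 1 and 2 alone, the libraries it correlated best with, the median change was 1.32. In this fit the median of Hoxa-flox against WT-GFP was -0.23. When Hoxa-del 1 and 3 were set against Hoxa-flox 3 the median change was 0.35, and the median of Hoxa-flox against WT-GFP was 0.17. Each of these fits has a floxed group of 1 library (Hoxa-del 2 or Hoxa-flox 3), so these medians have no replicate check there. The sets were chosen by their correlation in these same values, which narrows the spread within groups, so no counts of calls are given. Hoxa-del 2, the library with the highest histone sum, had the lowest *Mki67* of the 6 libraries with Cre, and *Mki67* was also low in Hoxa-flox 1 and 2 (16.4 and 14.9). The part of these differences between libraries in the result was not tested. Histone genes have near-identical copies, so single genes are uncertain. Not all followed: *Hist1h2al* was lower in Hoxa-del (7.67 ± 3.75 against 50.02 ± 11.5) and *Hist1h4m* higher (157 ± 96.7 against 9.73 ± 8.22), with differences of -3.69 and 4.87 with the control virus.

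**Figure D4:**
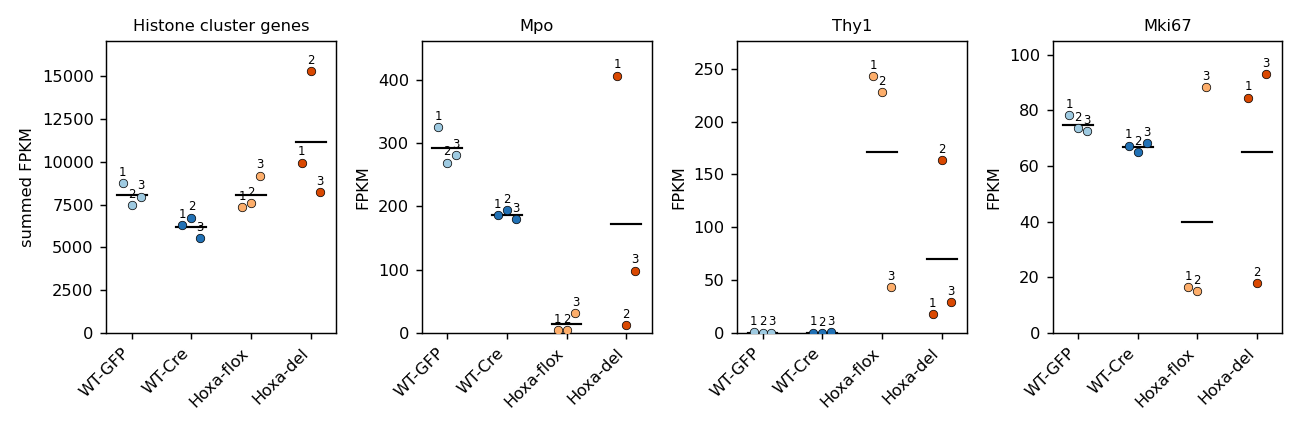
Summed FPKM of 53 histone cluster genes and FPKM of *Mpo*, *Thy1* and *Mki67* in each library; points carry the replicate number and bars mark the mean of 3 libraries. Hoxa-del 2 has the highest histone sum (15294) and, like Hoxa-flox 1 and 2, high *Thy1* and low *Mki67*, while *Mpo* reaches 407 in Hoxa-del 1.

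Some called genes lay together in the genome, a pattern noticed after the values had been seen and given without a test. Positions are those of GENCODE M21 on GRCm38, matched by symbol for 12693 tested genes. Of 403 genes on chromosome 16, 146 were lower (36.2%) and 27 higher (6.7%) in Hoxa-del, and 76.9% had a negative difference (median -0.44). With the control virus the median was -0.40. On chromosome 19, of 119 genes that start between 30 and 50 Mb, 73 were higher (61.3%) and 3 lower (median 0.82, and 0.81 with the control virus). The other 298 genes of chromosome 19 had a median of 0.10. They include 14 genes between 50 and 55 Mb with a median of 0.66 (0.70 with the control virus). The bounds of the segment were set after the values had been seen and do not end the shift. Chromosome 16 was not uniform: 5 Mb windows of at least 10 genes had medians from -0.675 (0 to 5 Mb) to -0.035 (45 to 50 Mb). The 12171 genes elsewhere had a median of 0.004, with 12.4% higher and 13.7% lower.

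In each library the median deviation of chromosome 16 genes from their mean over the 12 libraries lay between 0.18 and 0.23 in the WT groups and between -0.25 and -0.17 in the floxed groups. For the segment of chromosome 19 it lay between -0.47 and -0.35 in WT and between 0.37 and 0.48 in floxed libraries. As the plot by chromosome shows, neither region overlapped between genotypes, and Hoxa-del 2 was not apart from the others. Both regions were picked for their differences, so their separation follows from the choice. DNA copy number was not analysed here. Members of the lists in the chromosome 19 segment that were called higher include *Scd2*, *Pgam1*, *Ifit1*, *Pcgf5* and *Pcgf6*, and *Fgfbp3* lies there too. *Gp1bb* on chromosome 16 was lower (5.96 ± 2.46 against 52.5 ± 1.79), while *Erg* and *Mx2* there were higher.

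**Figure D5:**
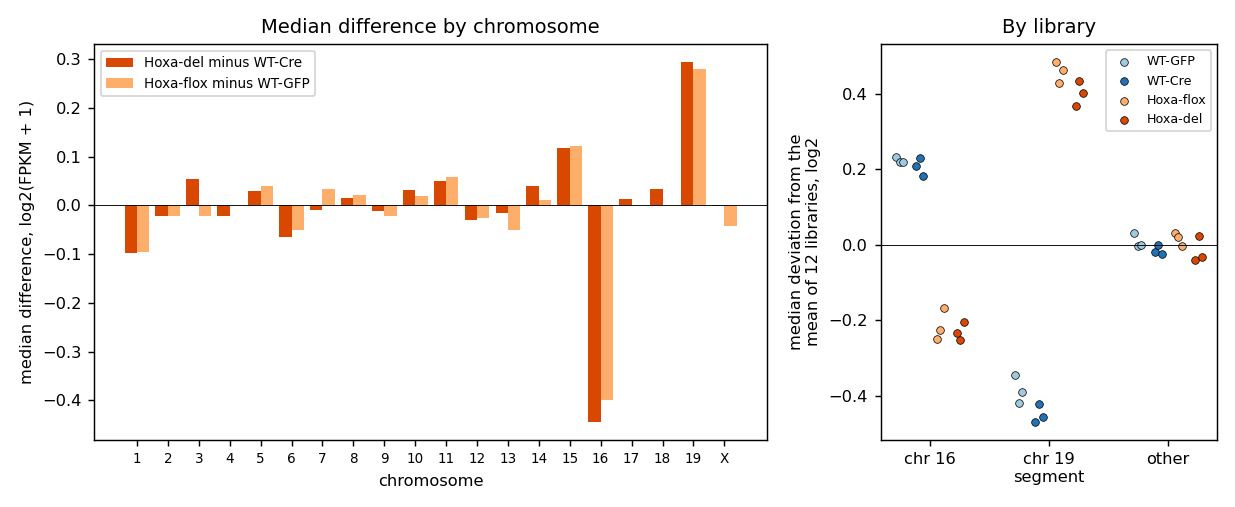
Left, median difference of the tested genes of each chromosome in log2(FPKM + 1), with Cre and with the control virus. Right, for chromosome 16, the 30 to 50 Mb segment of chromosome 19 and all other genes, the median deviation of each library from the mean of 12 libraries; WT and floxed libraries separate in both regions.

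Genes that differ between mouse donors also separated the groups. *Nnt*, a mitochondrial transhydrogenase in which C57BL/6J mice carry a deletion, measured 13.9, 10.1 and 12.7 FPKM in Hoxa-del and 34.4, 33.9 and 36.3 in WT-Cre (log2 difference -1.45, SE 0.16, adjusted p = 6.53e-05). The 4 Y-linked genes *Ddx3y*, *Eif2s3y*, *Kdm5d* and *Uty* summed to 2.70 to 3.89 FPKM in WT-Cre and to at most 0.158 in Hoxa-del. *Xist*, the RNA that coats an inactive X chromosome, measured 293, 124 and 266 in Hoxa-del and 122, 111 and 111 in WT-Cre (0.89, SE 0.26, adjusted p = 0.0270), with Hoxa-del 2 close to WT-Cre. Its call held only without Hoxa-del 2 among the 6 fits with a library left out (up to 0.0955 in the others). Both genotypes had *Xist*, and the WT libraries had in addition a low level of Y-linked RNA. The labels give neither the sex nor the number of donors.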

How the data were processed

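The deposited table has 28042 rows of gene symbols and a column for each of 12 libraries (0 columns belong to no sample). Total RNA was isolated with TRIzol, depleted of ribosomal RNA and made into stranded libraries, per the labels' protocols. The submitters' processing notes list mm10, GRCm38, STAR, Cuffdiff 2.2.2.20150701 and Cufflinks, and do not say which did what. The unit is not stated; the deposited values were taken as FPKM, the unit Cufflinks gives, so tests were made on a log scale. Library depth came from the whole-fragment steps of values under a mean of 0.3 FPKM (for WT-GFP 1 from 242 genes, interquartile range 12.8 to 13.0 M). Each of 1855 symbols that had several rows is represented by its row of highest mean over the 6 libraries.

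In R 4.3.3, limma 3.58.1 with a mean-variance trend was fitted to log2(FPKM + 1) over the 4 groups at once, for Hoxa-del minus WT-Cre, Hoxa-flox minus WT-GFP and the change between them, and called genes at a Benjamini-Hochberg adjusted p under 0.05. The added 1 shrinks differences of weakly expressed genes. The filter on the 6 libraries left out 244 symbols that reach 1 FPKM on average in the other 6. The script was tested on simulated data. Named genes were the Hoxa genes, the 10 largest called differences in each direction whose groups did not overlap and whose higher group averaged at least 5 FPKM, up to 4 called members with the smallest adjusted p of each list, and the 5 largest changes each way. Other genes were named after their values had been seen. The comparison, the members and the gene lists were chosen with earlier results of these data known. Alternatives were another pseudocount, other filters, upper-quartile rescaling, array weights, summed rows, the replicate number or library set as a term, a fit of only 2 groups and each library left out. Results for some items are not reported here. Fits within the sets of similar floxed libraries were listed for the change, and those for each genotype comparison were added after the data were seen. Tables were made with Python 3.11.15 and pandas 2.3.3.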

Additional observations from a re-analysis of the deposited data

Results flagged for a closer look

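The difference between the genotypes changed with Cre by 15.84 on the log2 scale for *Rn7sk*, the abundant 7SK small nuclear RNA, the gene that passed the test of the change over all genes (limma, adjusted p = 9.21e-07). It was listed at 0 in the 3 Hoxa-flox libraries. It measured 37208, 140447 and 34966 FPKM in Hoxa-del, 56624, 57154 and 39465 in WT-Cre, and 45844, 56138 and 54297 in WT-GFP. A value listed at 0 may be a failed estimate, so no fold is given. *Rn7s6*, a different small RNA with a similar name, was above 0 in the 3 WT-Cre libraries and listed at 0 in the other 9.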

How the results depend on the processing

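In Hoxa-del against WT-Cre, a fit of only the 2 groups called 2380 genes in place of 3592. Fits within the similar floxed libraries, added for these counts after the data were seen, called 7630 (Hoxa-del 2) and 6003 (Hoxa-del 1 and 3), and for Hoxa-flox against WT-GFP 7430 (Hoxa-flox 1 and 2) and 5559 (Hoxa-flox 3). The change with Cre then had 128 calls (97 upwards) for the first set, *Hoxa2* (adjusted p = 0.011) and *Hoxa9* (0.0399) among them, and 1 for the second. The first set leaves 1 Hoxa-del library and the second 1 Hoxa-flox library, each assumed to vary like the other groups. Array weights, whose iteration did not converge, gave 9274 calls for Hoxa-flox against WT-GFP and 3407 for the change. No filter on low values gave 4 calls for the change. With 1 library left out, calls ranged from 2572 to 4025 for Hoxa-del against WT-Cre, from 2370 to 4129 for Hoxa-flox against WT-GFP, and from 1 to 3 for the change (3 when WT-Cre 2 was dropped, 2 when WT-Cre 3 or WT-GFP 3 was). The replicate numbers did not pair the samples (same-number correlations of deviations 0.014, 0.071 and 0.042 with Cre and 0.207, -0.103 and 0.066 with the control virus). The replicate block gave 3638, 3546 and 1 calls. Differences in 6 genes that were not called turned in sign. With 1 library left out, *Alas2* ranged from -0.589 to 0.047 (without WT-Cre 1), *Cxcl2* from -0.208 (without Hoxa-del 1; -0.189 without Hoxa-del 2) to 0.658, *Mki67* from -0.760 to 0.403 (without Hoxa-del 2) and *Mpo* from -2.362 to 0.099 (without Hoxa-del 2). *Rn7sk* ranged from -0.481 (without Hoxa-del 2; -0.004 without WT-Cre 3) to 0.521 and *Rpl28-ps3* from -0.445 (without Hoxa-del 2; -0.44 without WT-Cre 1) to 0.506. With array weights *Cxcl2* was -0.168, *Mki67* 0.23, *Rn7sk* -0.314 and *Rpl28-ps3* -0.042. The cause of these shifts was not tested. Of the other values of named genes for Hoxa-del against WT-Cre, 2186 kept their direction and side of the threshold, 87 lost the call and 2 gained one.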
